A study of Homo sapiens and Mus musculus with 69 samples.

Results

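The genes described here are 34 genes of glycolysis and of the hypoxia response, read by symbol from 20516 gene rows of a human expression table, and 32 of the same genes, read by their title-case mouse symbols, from 18501 rows of a mouse table. They were chosen by name, with earlier results of these data known. By role they fall into 3 glucose and lactate transporters (*SLC2A1*, *SLC2A3* and *SLC16A3*), 14 glycolytic enzymes, 5 genes of lactate and pyruvate handling and of glycolytic regulation (*LDHA*, *LDHB*, *PDK1*, *PFKFB3* and *PFKFB4*), 10 hypoxia response genes (*CA9*, *BNIP3*, *VEGFA*, *ADM*, *EGLN3*, *NDRG1*, *ANKRD37*, *KDM3A*, *P4HA1* and *P4HA2*) and the 2 alpha subunits of hypoxia-inducible factor (HIF), *HIF1A* and *EPAS1*. No title-case row was found for *Gpi* and *Ca9* in the mouse table.

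Glycolysis turns glucose into pyruvate in the cytosol, and lactate dehydrogenase turns pyruvate into lactate, which leaves the cell through monocarboxylate transporters such as the product of *SLC16A3*. When oxygen is scarce the HIF alpha subunits escape the prolyl hydroxylases that mark them for destruction, pair with *ARNT* and switch on genes that hold the sequence ACGTG or GCGTG in their control regions, among them most glycolytic enzymes, the glucose transporters, the mitophagy receptor *BNIP3*, carbonic anhydrase *CA9* and the vessel growth factor *VEGFA*. The alpha subunits are controlled mainly at the protein level, and their mRNA does not report their activity. Small cell lung cancer (SCLC) is a fast-growing neuroendocrine tumor of the lung.

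The series holds RNA-Seq of 69 libraries in 23 groups of 3, from the human SCLC lines H82 (21 libraries), H524 (15), COR-L88 (15) and H69 (9) and the mouse *Rb1*/*Trp53* mutant SCLC line KP1 (9). H82, H524 and H69 were given as parental cells and as cells that carry a doxycycline-inducible vector for the *NOTCH1* intracellular domain (N1ICD), without and with doxycycline (dox), H82 also with that vector in *REST* knockout (KO) and in STING KO cells, and H524 also with an inducible *REST* vector. COR-L88 was given DMSO, the LSD1 inhibitor TAS1440, or TAS1440 plus a gamma-secretase inhibitor (GSI), which blocks Notch cleavage, and its STING KO cells were given DMSO or TAS1440. KP1 was given DMSO, TAS1440 or TAS1440 plus GSI. The methods give doxycycline at 1 µg/mL, TAS1440 at 0.1 µM, GSI at 2 µM for COR-L88 and 10 µM for KP1 (a different compound in each line), and 28 days of treatment for COR-L88; the sources give at least 28 days for KP1 and for every induction, and 56 days or more for H82, H82 *REST* KO, H524 and H69 with dox. The labels give no time. The methods also state that only adherent cells were collected after induction, so attachment to the plate and the vector's product cannot be told apart in the dox groups, and the knockouts shown in the study are single-cell clones, with no statement of which or how many gave the libraries. All cells were grown in culture; a hypoxic group is not among them.

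Values are log2(RPKM + 1) as deposited, a level per kilobase of transcript on a log2 scale, and every fold change below is a difference of mean log2 values with its standard error (SE). A gene was called when the Benjamini-Hochberg adjusted *P* of limma, fitted over all groups of a line and adjusted over all its tested genes, was under 0.05. Tested genes reached a log2 of 1 in at least 3 libraries of the line. A gene that does so only in the groups where it is high had to differ. Such members are named, and counts without them are given, for N1ICD in intact cells and for TAS1440 against DMSO in intact cells. For other comparisons no such counts were made. Nothing in the labels says that libraries of a group came from separate cultures, so these *P* values measure the spread between libraries only. Comparisons within a line share libraries and are not independent of each other. In bulk RNA, fewer cells of a type and less RNA per cell cannot be told apart.

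The promoters of the human members were read from RefSeq entries (GRCh38.p14), 250 bases before each transcription start, for the 2 core letters bound by HIF, ACGTG and GCGTG, on both strands. Entries were found for 31 of the 34 members (*NDRG1*, *VEGFA* and *SLC2A3* are named only). At least 1 core stood in some entry of 26 of the 31 genes (83.9%), against 12945 of all 27305 genes in the promoter table (47.4%). Members have more entries per gene than most, and per entry the shares were 35 of 59 (59.3%) and 15172 of 35116 (43.2%). ACGTG made up that gap, at 35.6% of member entries against 18.5% of all, whereas GCGTG stood in 33.9% and 32.2%. Stretches of 6 members that carry the results below are shown 5′ to 3′ on the gene's strand, with the cores in capitals (CACGT and CACGC are ACGTG and GCGTG read on the other strand, and CACGTG holds ACGTG on both). *LDHA* (chr11:18394363-18394509, plus strand) and *ALDOC* (chr17:28576904-28577145, minus strand) are shown because they fell far in H82, *BNIP3* (chr10:131982008-131982081, minus strand) because it holds the densest run, *ANKRD37* (chr4:185396664-185396717, plus strand) and *CA9* (chr9:35673895-35673927, plus strand) because they were called in some lines and not in others, and *GAPDH* (chr12:6535168-6535203, plus strand) because it is the usual reference gene.
LDHA: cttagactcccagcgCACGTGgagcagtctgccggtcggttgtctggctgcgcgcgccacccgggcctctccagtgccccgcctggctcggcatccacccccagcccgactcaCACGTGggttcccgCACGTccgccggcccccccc
ALDOC: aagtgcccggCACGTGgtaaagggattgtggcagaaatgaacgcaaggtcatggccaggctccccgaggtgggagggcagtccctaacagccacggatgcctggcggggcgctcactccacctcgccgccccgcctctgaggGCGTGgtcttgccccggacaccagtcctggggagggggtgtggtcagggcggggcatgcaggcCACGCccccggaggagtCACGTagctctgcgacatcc
BNIP3: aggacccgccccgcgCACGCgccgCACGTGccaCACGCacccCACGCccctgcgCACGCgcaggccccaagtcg
ANKRD37: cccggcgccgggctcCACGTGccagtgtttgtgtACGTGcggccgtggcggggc
CA9: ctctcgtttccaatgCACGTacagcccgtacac
GAPDH: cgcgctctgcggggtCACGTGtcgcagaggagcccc
*LDHA*, *ALDOC* and *BNIP3* hold 5, 5 and 6 cores, and *ANKRD37*, *GAPDH* and *CA9* hold 3, 2 and 1. By role, a core stood before 13 of 14 glycolytic enzymes, 4 of 5 lactate, pyruvate and regulator genes, 6 of 8 hypoxia response genes, both HIF alpha genes and 1 of 2 transporters. No core stood before *EGLN3*, *LDHB*, *P4HA2*, *PGAM1* and *SLC2A1*. These are matches of letters in a window, and binding was not measured.

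Over the 60 human libraries the members covered most of the range of expressed genes. The enolase *ENO1* was highest with a median log2 level of 12.74, followed by *GAPDH* at 12.42, the phosphoglycerate mutase *PGAM1* at 10.61, *LDHA* at 9.79 and the glucose transporter *SLC2A1* at 8.53. Lowest were *CA9* at 1.50, the pyruvate dehydrogenase kinase *PDK1* at 1.98, *EPAS1* at 1.98 and the brain-type aldolase *ALDOC* at 2.03. Neighbours in this order overlapped across libraries, as the range of *ENO1* (11.10 to 14.97) against that of *GAPDH* (10.79 to 14.36) shows. The widest ranges belonged to *SLC16A3* (0.00 to 10.43), *VEGFA* (2.15 to 10.85), *HK2* (0.15 to 8.66), *ALDOC* (0.34 to 8.48) and *NDRG1* (1.61 to 9.29), and the narrowest to *PFKL* (2.66 to 4.93) and *HIF1A* (3.46 to 5.95). Levels in the 2 tables were scaled separately and are not compared with each other.

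**Figure D1:**
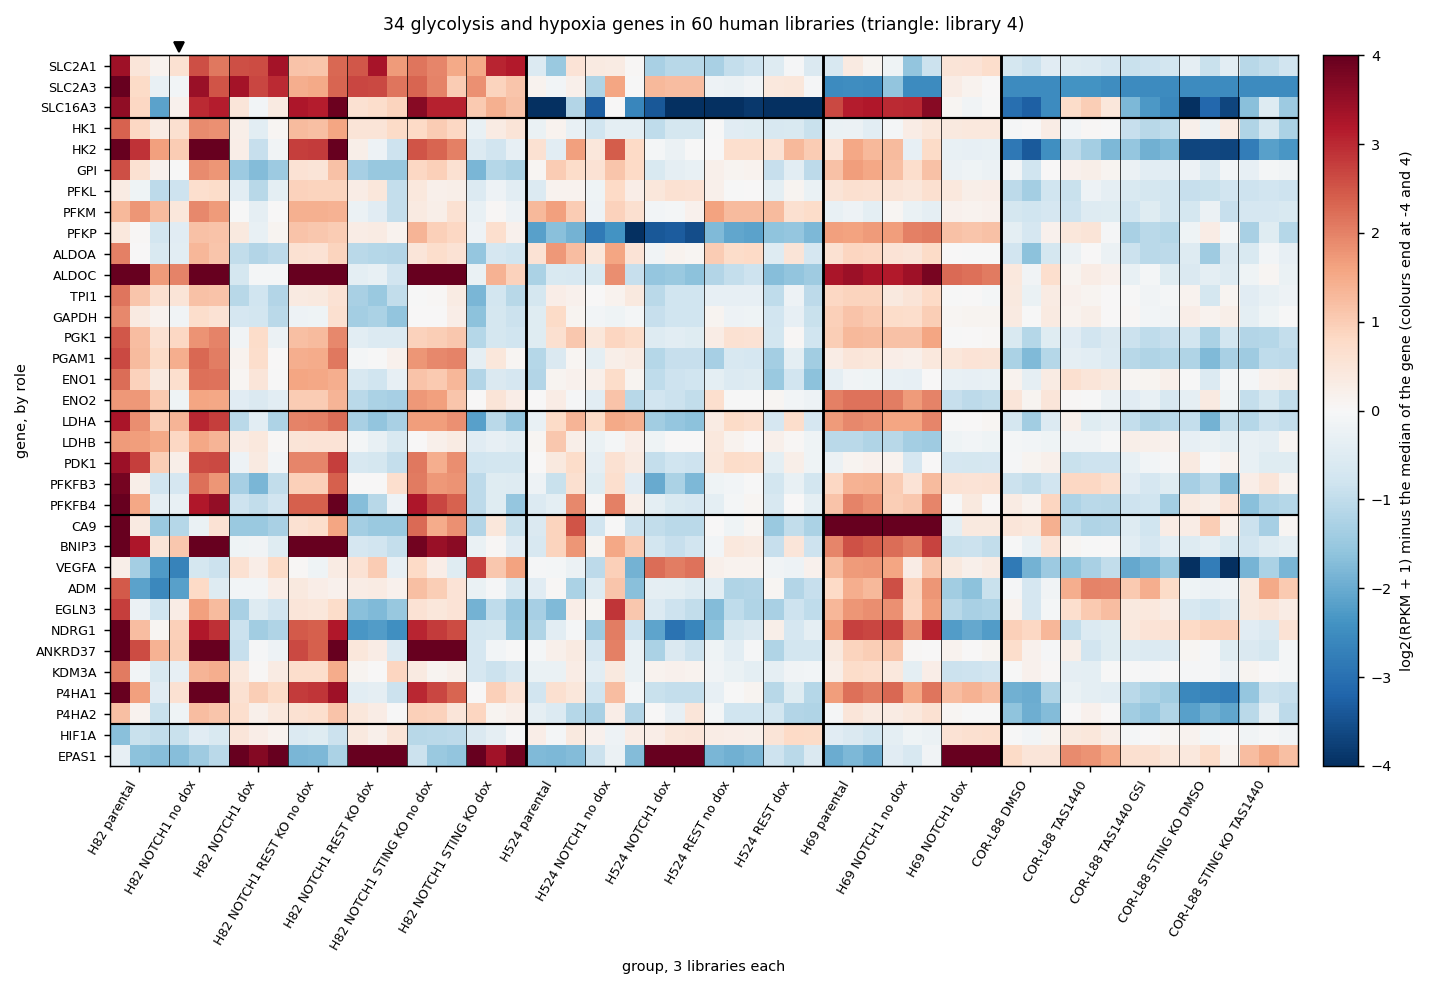
The 34 genes (rows, by role, black lines between roles) in the 60 human libraries (columns, 3 per group, thick lines between cell lines), coloured by log2(RPKM + 1) minus the gene's median, with colours ending at -4 and 4; the triangle marks library 4. H82 without dox is red for most genes, paler in library 4 and in parental libraries 2 and 3, and *EPAS1* is red in every *NOTCH1* dox group.

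Untreated H82 cells were not alike in these genes. Library 4, labelled H82 *NOTCH1* without dox, lay below both other libraries of its group (5 and 6) for 34 of 34 members, by a median of 1.68 log2 units, whereas over all 13903 genes tested in H82 it lay below both for 44.6% and above both for 40.8%, with a median difference of -0.02. Library 4 is given apart and enters no group mean, which leaves 2 libraries (5 and 6) in that group. These values are why it was set apart, and they are no independent support for doing so. Leaving it out raises the untreated mean of every member, so falls in H82 are larger than with library 4 kept. Counts with library 4 in its labelled group are given with the results below. The 3 parental libraries were spread in the same way: library 1 was the highest for 32 of 34 members (41.2% of all genes) and library 3 the lowest for 33 of 34 (29.6% of all genes). The median SD of the members over the parental libraries was 1.28, and 2.22 for the hypoxia response genes, against 0.27 for all tested genes.

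The spread of the hypoxia response genes exceeded that of the glycolytic enzymes, whose median SD was 0.96. *CA9* was measured at 5.72, 1.87 and 0.00 in the 3 parental libraries, the hormone precursor *ADM* at 5.18, 0.57 and 0.15, *BNIP3* at 8.87, 7.42 and 4.73 and *NDRG1* at 9.29, 5.78 and 4.64. *HIF1A* and *LDHB* were narrow, at 3.46, 4.23 and 4.14 and 9.84, 9.81 and 9.64. Library 4 lay nearer to parental library 3 than to libraries 1 and 2 in *BNIP3* (5.29) and *ALDOC* (4.01, where parental libraries were at 8.48, 6.42 and 3.75). H524 showed a smaller form of this: its *NOTCH1* library 23 without dox stood above libraries 22 and 24 for *NDRG1* (3.14, 6.60 and 3.74 in order), *EGLN3* (2.89, 5.65 and 3.88) and *ALDOC* (1.43, 3.90 and 1.11), and the members' median SD there was 0.65 against 0.33 for all genes. With N1ICD induced in intact cells, the members' median SD was 0.26 in H82, 0.12 in H524 and 0.05 in H69. That of all genes was near these values, at 0.26, 0.12 and 0.07. In H82 *REST* KO cells with dox both were 0.21. The members were more spread than all genes with dox in H82 STING KO cells (0.38 against 0.20) and in H524 with *REST* (0.30 against 0.19).

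Without dox, the *NOTCH1* vector by itself went with modest differences. Against parental H82, libraries 5 and 6 had 5 members called higher (*HIF1A*, *ENO1*, *PFKP*, *BNIP3* and the collagen prolyl hydroxylase *P4HA1*) and 0 lower, with 14.8% and 11.4% of all genes called in those directions. *BNIP3* differed by 1.999 (SE 0.69) and *P4HA1* by 2.31 (SE 0.81). The count moved to 24 without parental library 1, to 3 without library 2, to 2 without library 3, and to 0 without library 5 or with library 4 back in its group, so it rests on which untreated libraries are used. In H524 the *NOTCH1* cells had 1 member higher (*EGLN3*, 2.27 (SE 0.59)) and 2 lower (*PFKP* and *PFKM*) than parental cells, against 10.7% and 15.9% of all genes, and by limma the *REST* cells had 0 and 0 (0.0366% and 0.264%), also 0 at an unadjusted *P* under 0.05. The *NOTCH1* count was 0 without parental library 20, 5 without 21 and 6 without library 23. In H69, *HIF1A*, *HK1* and *EPAS1* were higher (0.32, 0.52 and 1.52) and 0 lower, against 13.8% and 13.6%; the count was 1 without parental library 48, 9 without library 49 and 5 without library 51.

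*NOTCH1* induction was visible in its own mRNA. In H82, *NOTCH1* was 1.45 in library 4 and 0.88 and 1.15 in libraries 5 and 6 without dox, and 4.75, 4.26 and 5.56 with it. In H82 *REST* KO cells it was 1.28, 1.21 and 1.47 without dox. With dox it was 8.75, 9.15 and 10.74 there, above all intact H82 libraries. H524 went from 0.79, 1.28 and 1.52 to 7.58, 8.29 and 8.31 and H69 from 0.38, 0.39 and 0.39 to 8.07, 7.93 and 7.97. The deposited values cannot separate vector from endogenous transcripts. *REST* mRNA in the *REST* KO cells (3.99, 4.15 and 4.20 without dox, 4.95, 4.95 and 5.89 with it) was present, and STING mRNA (*TMEM173*) was 1.27, 1.53 and 2.04 in H82 STING KO cells with dox and 1.07, 1.17 and 1.10 in intact ones; a nuclease cut need not remove the transcript, so these levels do not check the labels.

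In H82, induction of N1ICD went with lower mRNA of every glycolytic enzyme measured and of all 5 lactate, pyruvate and regulator genes, while *HIF1A* and *EPAS1* rose. Of 34 members, 25 were lower and 2 higher, where 26.1% and 26.8% of all genes were called in those directions, and the median change was -1.96 against 0.00 over all genes. *EPAS1* passed the filter only through dox libraries; without genes admitted by the side where they are high the counts were 25 of 33 lower and 1 of 33 higher, against 24.9% and 21.8% of all genes. With library 4 in its labelled group the counts were 21 lower and 3 higher, and against parental cells 22 and 3.

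*ALDOC*, the brain-type aldolase, changed most. It was 8.41 and 8.07 in libraries 5 and 6 and 1.33, 1.95 and 1.94 with dox, a log2 fold change of -6.50 (SE 0.82, limma adjusted *P* = 5.06e-06). Every dox library was also below library 4 (4.01) and below the parental libraries (8.48, 6.42 and 3.75). *LDHA*, which makes lactate from pyruvate, was 12.81 and 12.56 in libraries 5 and 6, 11.14 in library 4, and 8.71, 9.37 and 8.55 with dox, a log2 fold change of -3.81 (SE 0.45, limma adjusted *P* = 2.29e-06). The inducible hexokinase *HK2*, which traps glucose in the cell, was 8.00 and 7.82 without dox, 4.86 in library 4 and 4.11, 2.90 and 3.71 with dox, a log2 fold change of -4.33 (SE 0.64, limma adjusted *P* = 2.49e-05). For these 3 genes the dox libraries and the uninduced ones did not overlap, library 4 and parental cells included.

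The enzymes that split and rearrange hexoses and the later enzymes fell less. The phosphoglucose isomerase *GPI* changed by -3.38 (SE 0.45), *ALDOA* by -2.29 (SE 0.47), *TPI1* by -2.17 (SE 0.34), *ENO1* by -2.01 (SE 0.35), *PGAM1* by -1.89 (SE 0.39) and the housekeeping reference *GAPDH* by -1.47 (SE 0.40), all called. The muscle phosphofructokinase *PFKM* (-1.92 (SE 0.21)) fell more than *PFKP* (-1.08 (SE 0.30)) and *PFKL* (-1.34 (SE 0.37)) in these point values, a difference that was not tested. *PFKFB3* and *PFKFB4*, which make the activator of phosphofructokinase, changed by -3.38 (SE 0.84) and -4.24 (SE 1.04). *PDK1*, which keeps pyruvate out of the mitochondrial oxidation pathway, changed by -2.60 (SE 0.46) and *LDHB* by -1.19 (SE 0.16).

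The transporters split. *SLC16A3*, the lactate exporter, was 9.50 and 9.65 in libraries 5 and 6 and 6.99, 6.40 and 6.87 with dox, a log2 fold change of -2.82 (SE 0.93, limma adjusted *P* = 0.0169). Library 4 (6.66) and parental library 3 (the last of 10.05, 7.33 and 4.37) lay within or below the dox values, so the groups overlap when all untreated libraries are taken. The glucose importers were not called: *SLC2A1* was 11.11 and 10.65 without dox and 11.11, 11.13 and 11.86 with it (0.49 (SE 0.75, limma adjusted *P* = 0.605)), and *SLC2A3* gave 0.01 (SE 0.81, limma adjusted *P* = 0.997).

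Among the 10 hypoxia response genes 5 were lower and 0 higher. *BNIP3* was 9.05 and 8.95 in libraries 5 and 6, 5.29 in library 4 and 4.04, 4.05 and 3.71 with dox, a log2 fold change of -5.07 (SE 0.69, limma adjusted *P* = 1.12e-05). *ANKRD37* was 8.25 and 8.00, 5.01 and 3.12, 3.97 and 3.82 in the same order, a log2 fold change of -4.49 (SE 0.91, limma adjusted *P* = 0.000541). *NDRG1*, a stress-responsive gene, changed by -4.22 (SE 0.80), *P4HA1* by -3.39 (SE 0.81) and the HIF prolyl hydroxylase *EGLN3* by -2.30 (SE 0.65). The remaining 5 did not pass: *VEGFA*, at 7.41 and 7.25 without and 8.71, 8.37 and 8.87 with dox, gave 1.32 (SE 0.59, limma adjusted *P* = 0.0681), and *CA9* gave -1.58 (SE 0.99, limma adjusted *P* = 0.194) from levels near the bottom of the range.

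The HIF alpha genes went the other way. *EPAS1* was 0.55 and 0.91 in libraries 5 and 6, 0.28 in library 4, 1.64, 0.34 and 0.28 in parental cells and 6.34, 5.65 and 6.47 with dox, a log2 fold change of 5.42 (SE 0.40, limma adjusted *P* = 9.86e-09). *HIF1A* was 4.69 and 4.52 and 5.62, 5.39 and 5.28, a log2 fold change of 0.82 (SE 0.21, limma adjusted *P* = 0.00383). When all 3 dox libraries were set against all 6 untreated ones (parental, 4, 5 and 6) by rank alone, 17 members lay entirely below and 3 entirely above (*VEGFA*, *HIF1A* and *EPAS1*), where 18.4% and 21.2% of all tested genes did. Called lower but outside those 17 were the enzymes *PFKL*, *PFKP*, *PGK1* and *ENO1*, and also *SLC16A3*, *PDK1*, *P4HA1* and *EGLN3*.

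**Figure D2:**
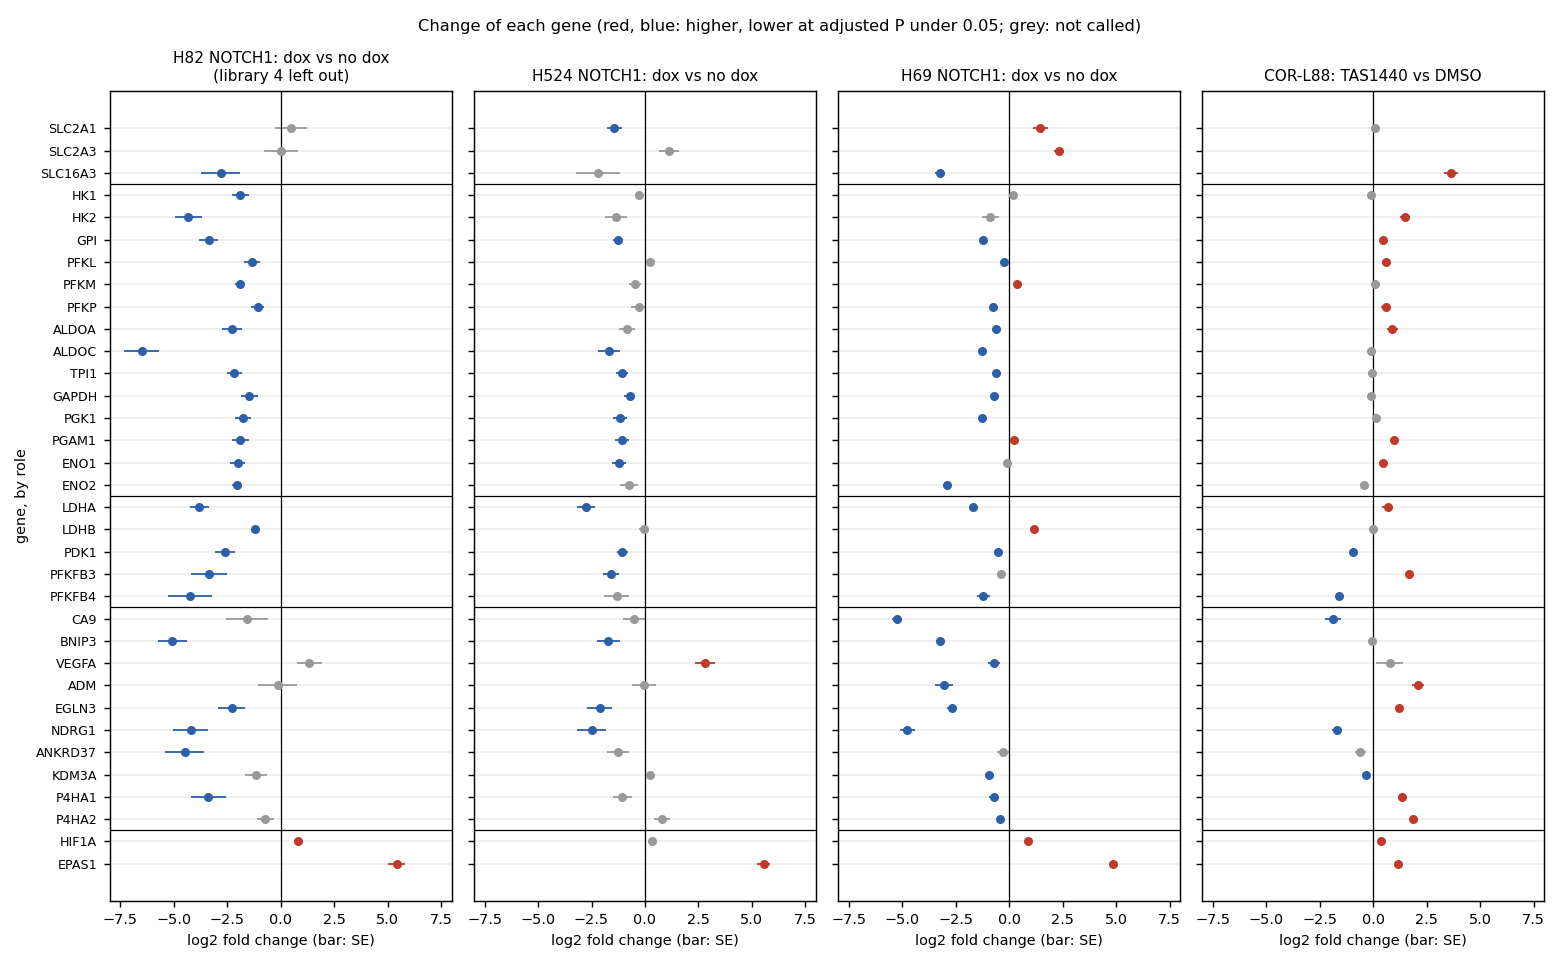
Log2 fold changes (points, with bars of 1 SE) of the human members by role in H82 (library 4 left out), H524 and H69 with N1ICD and in COR-L88 with TAS1440; red and blue mark genes called higher and lower, and grey those not called. In H82 every glycolytic enzyme is blue, *EPAS1* is red in all 4 panels, and in COR-L88 no enzyme is blue.

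Knockout of *REST* or STING left most of this in place. In *REST* KO cells 24 members were lower and 2 higher with dox (27.9% and 27.8% of all genes; median -1.89 against -0.01), and in STING KO cells 23 were lower and 3 higher (19.2% and 22.9%; median -1.71 against 0.01). *BNIP3* was 8.49, 8.55 and 9.05 without and 3.54, 3.44 and 3.26 with dox in *REST* KO cells, and 8.04, 7.65 and 7.80 and 3.94, 4.26 and 3.74 in STING KO cells. *ALDOC* changed by -6.15 (SE 0.73) in *REST* KO and -4.76 (SE 0.73) in STING KO cells, *NDRG1* by -5.01 (SE 0.72) and -3.80 (SE 0.72), *PFKFB4* by -4.02 (SE 0.93) and -3.76 (SE 0.93), *LDHA* by -3.45 (SE 0.40) and -3.31 (SE 0.40), and *EPAS1* by 6.57 (SE 0.36) and 5.04 (SE 0.36). *CA9*, not called in intact cells, was called in both knockouts (-2.42 (SE 0.89) and -2.40 (SE 0.89)), and *VEGFA* was called higher in STING KO cells (1.62 (SE 0.52)). All 6 of these groups have 3 libraries except intact cells without dox, with 2. *CA9* passed the H82 filter only through libraries without dox and *EPAS1* only through those with it, so their calls are given as values only. Counts without them were not made for the knockouts.

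The difference between responses was tested directly. No member's response was called different between *REST* KO and intact cells (limma, 0 of 34 against 16.3% of all genes, and 1 member at an unadjusted *P* under 0.05). The SEs were wide, as for *HK2* (0.85 (SE 0.85)), *ALDOC* (0.35 (SE 1.10)) and *EPAS1* (1.14 (SE 0.53)). This count therefore does not show that the responses were equal. In STING KO cells 1 member was called, *PFKM*, against 13.0% of all genes. It changed by -0.56 (SE 0.19) there and by -1.92 (SE 0.21) in intact cells, a difference of 1.36 (SE 0.29, limma adjusted *P* = 0.00509). That count was 0 with library 4 in its group and 2 without dox library 8. Between dox groups, *ENO2* and *LDHB* were lower in *REST* KO than in intact cells (-0.74 (SE 0.20) and -0.58 (SE 0.15); 0 were higher; 23.1% and 19.2% of all genes). In STING KO cells with dox, *PGK1*, *ENO1*, *LDHB* and *HIF1A* were lower (-0.998, -0.995, -0.65 and -0.63) and *ENO2*, the neuronal enolase, was higher (0.75), against 25.8% and 17.6%. The first count rose from 2 to 4 without *REST* KO library 33, and the other went from 5 to 3 without dox library 8 and to 2 without STING KO library 58. For STING KO cells the sources give only a minimum of 28 days of dox, and a difference in time from the other groups cannot be told apart from genotype there. With dox, *NOTCH1* mRNA was higher in *REST* KO than in intact cells. Its level cannot be told apart from genotype in the *REST* KO contrasts.

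In H524 the direction was similar and the changes smaller. With N1ICD 14 members were lower and 2 higher, against 14.4% and 17.9% of all genes, with a median of -1.06 against -0.02 over all genes. By role, 7 of 14 enzymes, 3 of 5 lactate, pyruvate and regulator genes, 3 of 10 hypoxia response genes and 1 of 3 transporters were lower. *EPAS1* passed the filter only through dox libraries and *ALDOC* only through untreated ones, and without such genes 13 of 32 were lower and 1 of 33 higher, against 13.9% and 14.6% of all genes. Against parental cells the counts were again 14 and 2.

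*LDHA* was 10.57, 11.30 and 11.21 without dox and 8.39, 8.24 and 8.15 with it, a log2 fold change of -2.77 (SE 0.41, limma adjusted *P* = 0.000148). *BNIP3* was 4.30, 5.75 and 5.25 and 3.47, 3.28 and 3.42, a log2 fold change of -1.71 (SE 0.54, limma adjusted *P* = 0.0262). *SLC2A1*, unlike in H82, was lower, at 8.90, 8.87 and 8.57 against 7.22, 7.42 and 7.42, a log2 fold change of -1.43 (SE 0.37, limma adjusted *P* = 0.00895), though parental cells (7.98, 7.04 and 9.09) reached below the dox values. *PGK1* (-1.16 (SE 0.33)), which makes the first ATP of glycolysis, *GPI* (-1.25 (SE 0.24)) and *PFKFB3* (-1.59 (SE 0.37)) were called lower too. *NDRG1*, *EGLN3* and *ALDOC* were called lower as well (-2.49 (SE 0.68), -2.12 (SE 0.59) and -1.66 (SE 0.51)), with library 23 highest without dox in each. Not called were *HK2* (-1.34 (SE 0.51, limma adjusted *P* = 0.0585)), *ENO2* (-0.74 (SE 0.41, limma adjusted *P* = 0.194)), *LDHB* (-0.03 (SE 0.24, limma adjusted *P* = 0.947)), *CA9* (-0.51 (SE 0.53, limma adjusted *P* = 0.506)) and *HIF1A* (0.33 (SE 0.17, limma adjusted *P* = 0.161)). *EGLN3* stood at 1.49, 1.04 and 3.07 in parental cells, and against these its change was 0.15, of the opposite sign.

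*VEGFA* and *EPAS1* were the 2 members that rose in H524. *VEGFA* was 8.08, 8.02 and 7.88 in parental cells, 7.06, 9.07 and 6.22 without dox and 10.33, 10.16 and 10.28 with it, a log2 fold change of 2.81 (SE 0.48, limma adjusted *P* = 0.000486). *EPAS1* was 1.12, 1.74 and 0.23 and 6.20, 6.82 and 6.70, a log2 fold change of 5.54 (SE 0.29, limma adjusted *P* = 5.67e-09). By rank alone these 2 lay above all 6 untreated libraries (16.8% of all genes did) and 12 members lay below them (15.6%).

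Inducing *REST* in H524 gave few calls. *REST* mRNA was 5.05, 5.03 and 4.90 without dox and 6.87, 10.72 and 9.43 with it, so library 37 rose least. At an unadjusted limma *P* under 0.05, 7 members were lower and 2 higher, so the small count of calls does not show that the other members stayed level. *GPI* was the 1 member called, at 5.44, 5.35 and 5.38 without dox and 4.32, 4.81 and 4.18 with it, a log2 fold change of -0.95 (SE 0.24, limma adjusted *P* = 0.048), and 0 were higher, where 1.06% and 1.77% of all genes were called. The call was lost without library 34, 35, 36, 37 or 39, each of which gave 0. *EPAS1* gave 1.03 (SE 0.29, limma adjusted *P* = 0.0815) from 0.16, 0.06 and 0.17 to 1.17, 0.90 and 1.40, and with *HIF1A* it lay above all 6 untreated libraries (2 members, 8.87% of all genes), while 6 lay below (*HK1*, *GPI*, *ALDOA*, *ALDOC*, *CA9* and *ANKRD37*; 5.8%). The response to N1ICD differed from that to *REST* for 5 members (against 19.1% of all genes): *NDRG1* by -3.19 (SE 0.96), *SLC2A1* by -2.08 (SE 0.52), *LDHA* by -1.96 (SE 0.58), *VEGFA* by 3.03 (SE 0.68) and *EPAS1* by 4.52 (SE 0.41). Leaving out library 26, 27 or 34 left 3 of them. Between the dox groups 4 members were higher with N1ICD (*EPAS1*, *VEGFA*, *P4HA2* and *PFKL*) and 6 lower (*NDRG1*, *PFKP*, *LDHA*, *PFKFB3*, *PFKM* and *PDK1*), against 19.9% and 22.9%. Without any 1 of the 6 dox libraries 5 or 6 of these 10 were called: 6 without library 25, 37, 38 or 39 and 5 without 26 or 27.

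H69 had the tightest libraries and a mixed response. With N1ICD 22 members were lower and 7 higher, where 38.3% and 44.1% of all genes were called, and the median was -0.70 against 0.08. Of the hypoxia response genes 9 of 10 were lower, with a median of -1.79, against -0.66 for the enzymes. *CA9*, a membrane enzyme that buffers acid outside the cell, was 6.89, 6.59 and 7.11 without dox and 1.10, 1.87 and 1.87 with it, a log2 fold change of -5.24 (SE 0.25, limma adjusted *P* = 1.42e-07). *NDRG1* was 7.32, 6.46 and 7.63 and 2.31, 2.50 and 2.32, a log2 fold change of -4.76 (SE 0.35, limma adjusted *P* = 1.99e-06). *BNIP3* was 6.42, 6.26 and 6.91 and 3.30, 3.34 and 3.22, a log2 fold change of -3.24 (SE 0.19, limma adjusted *P* = 5.42e-07), and in these 3 genes no dox library reached an untreated one. *ADM* (-3.04 (SE 0.40)), *EGLN3* (-2.66 (SE 0.25)), *KDM3A* (-0.92 (SE 0.22)) and *VEGFA* (-0.70 (SE 0.29)) were called lower, and *ANKRD37* was not called (-0.30 (SE 0.29, limma adjusted *P* = 0.353)).

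Of the enzymes in H69, 9 were lower and 2 higher. *ENO2*, also known as a neuroendocrine marker, was 7.95, 7.63 and 7.90 without and 5.01, 4.86 and 4.94 with dox, a log2 fold change of -2.89 (SE 0.10, limma adjusted *P* = 1.39e-08), whereas *ENO1* was 12.45, 12.41 and 12.74 and 12.44, 12.41 and 12.44 and was not called. Among the others *PGK1* (-1.29 (SE 0.13)), *ALDOC* (-1.27 (SE 0.14)) and *GAPDH* (-0.71 (SE 0.08)) were called lower, *HK2* was not called (-0.88 (SE 0.40, limma adjusted *P* = 0.0679)), and *PFKM* (0.35 (SE 0.11)) and *PGAM1* (0.21 (SE 0.07)) were called higher with small changes. *LDHA* was 11.36, 11.37 and 11.75 and 9.76, 9.82 and 9.86, a log2 fold change of -1.68 (SE 0.11, limma adjusted *P* = 9.59e-07), while *LDHB* rose from 7.01, 6.78 and 6.71 to 7.96, 8.02 and 7.97, a log2 fold change of 1.15 (SE 0.08, limma adjusted *P* = 1.62e-06).

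The transporters of H69 went in both directions. *SLC16A3* was 9.47, 9.50 and 10.15 without and 6.57, 6.35 and 6.48 with dox (-3.24 (SE 0.21), called lower). *SLC2A1* was 8.37, 6.97 and 7.69 and 9.06, 9.09 and 9.23 (1.46 (SE 0.35), called higher), and *SLC2A3* went from 0.94, 0.00 and 0.02 to 2.81, 2.67 and 2.53 (2.35 (SE 0.23), called higher). *SLC2A3* reached the filter level only in the dox group, so its rise is given as values and supports nothing; without genes admitted by the side where they are high 22 of 34 members were lower and 6 of 33 higher, against 30.1% and 39.4% of all genes. *EPAS1* rose from 1.53, 1.36 and 1.85 to 6.47, 6.46 and 6.44, a log2 fold change of 4.88 (SE 0.12, limma adjusted *P* = 2.33e-09), and *HIF1A* changed by 0.89 (SE 0.08). By rank alone 19 members lay below and 6 above all 6 untreated libraries, against 35.4% and 41.1% of all genes; against parental cells 23 were called lower and 6 higher.

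**Figure D3:**
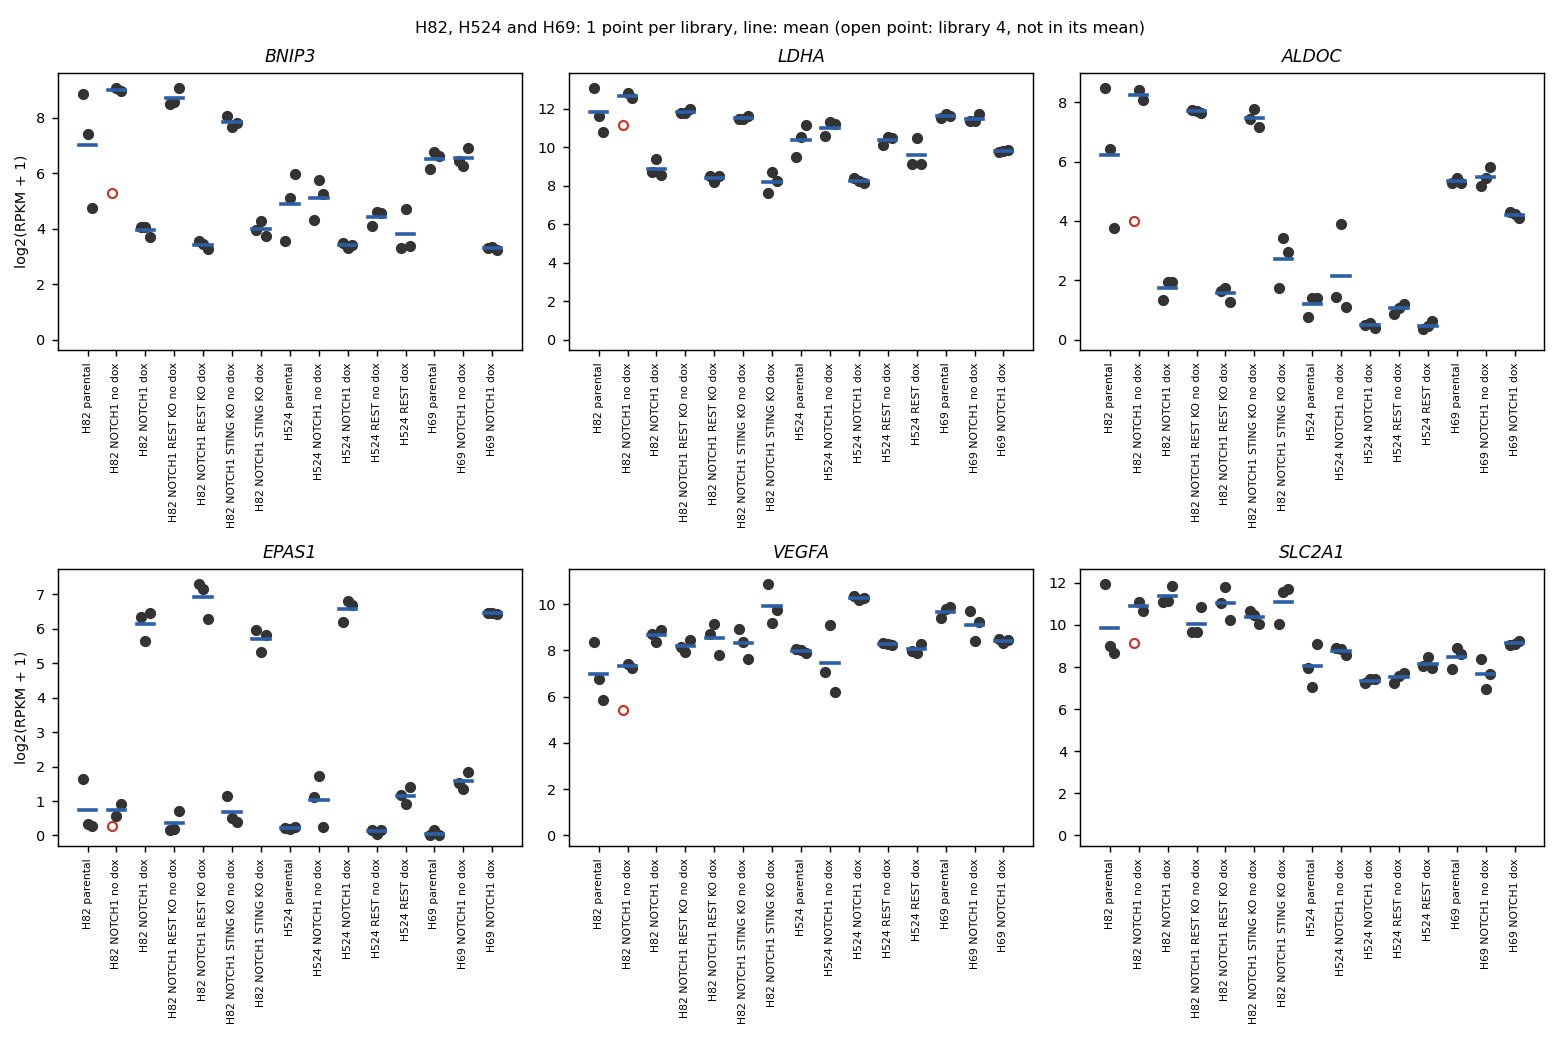
Log2(RPKM + 1) of 6 members in each library (points, with lines at group means) of all groups of H82, H524 and H69, the *REST* KO, STING KO and *REST* vector groups included; the open point is library 4, which is in no mean. *BNIP3* and *LDHA* are lower with *NOTCH1* dox in each line, *EPAS1* rises from under 2 to between 5.65 and 6.82 in intact cells, and *VEGFA* and *SLC2A1* go in different directions in different lines.

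The 3 lines share no libraries, so their calls can be laid side by side. Called lower in all 3 were 10 of 34 members (29.4%): *GPI*, *ALDOC*, *TPI1*, *GAPDH*, *PGK1*, *LDHA*, *PDK1*, *BNIP3*, *EGLN3* and *NDRG1*; of the 12077 genes tested in all 3 lines 5.04% were. *EPAS1* was the 1 member called higher in all 3 (2.94%, against 7.22% of all genes). *SLC2A1*, *PFKM*, *PGAM1*, *LDHB* and *VEGFA* were called higher in 1 line and lower in another (14.7%, against 20.7% of all genes). Of the 30 members that passed the filter on both sides in each line, which leaves out *ALDOC*, *CA9*, *SLC2A3* and *EPAS1*, 9 were called lower in all 3 (30.0%, against 4.32% of 9732 genes) and 0 higher by limma (4.92%).

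Sizes differed between lines by direct tests in 1 fit of all human groups. H69 differed from H82 for 22 members (19 with the more positive change in H69, 3 with the more negative; 59.4% of all genes were called), H524 from H82 for 18 (17 and 1; 37.4%) and H69 from H524 for 13 (6 and 7; 56.3%). *ALDOC* changed by -6.50 in H82, -1.66 in H524 and -1.27 in H69, and H82 differed from H524 by 4.84 (SE 0.83, limma adjusted *P* = 7.85e-06) and from H69 by 5.23 (SE 0.83, limma adjusted *P* = 6.46e-07). *HK2* gave -4.33, -1.34 and -0.88 in the same order, with differences of 2.99 (SE 0.75) and 3.46 (SE 0.75) from H82. *CA9* was most negative in H69, by -3.66 (SE 1.01) from H82 and -4.74 (SE 0.95) from H524. *VEGFA* in H69 differed by -2.02 (SE 0.84) from H82 and -3.50 (SE 0.79) from H524. With library 4 in its labelled group the number that differed between H524 and H82 was 8.

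The balance between some isoforms of 1 step shifted with N1ICD, not all of them in every line. The level of *LDHA* minus that of *LDHB* (log2, per length) was 3.15 and 3.08 in H82 libraries 5 and 6, 2.17 in library 4, and 0.29, 0.81 and 0.37 with dox. In H524 it went from 2.70, 3.25 and 2.79 to 0.42, 0.10 and 0.00, and in H69 from 4.35, 4.59 and 5.04 to 1.80, 1.80 and 1.90. In all 3 lines the dox libraries lay below the untreated vector cells. The level of *HIF1A* minus that of *EPAS1* turned negative with N1ICD, to -0.72, -0.26 and -1.19 in H82, -0.80, -1.22 and -1.07 in H524 and -0.75, -0.70 and -0.63 in H69, from at least 3.06 in the intact vector cells without dox. With *REST* in H524 it was 4.47, 5.04 and 4.50. *HK2* minus *HK1* went from 2.15 and 2.03 to -0.10, -0.65 and -0.32 in H82 (library 4, 0.26). In H524 it went from 1.129, 2.677 and 1.085 to 0.805, 0.346 and 0.559, and in H69 from 1.223, -0.76 and 0.215 to -0.803, -0.862 and -0.838. *ENO1* minus *ENO2* went from 4.50, 4.78 and 4.84 to 7.42, 7.55 and 7.50 in H69. It overlapped in H82 (7.46 and 7.47 without, 7.36, 7.87 and 7.23 with dox) and in H524 (7.43, 6.40 and 8.06 without, 6.56, 6.88 and 7.00 with dox). Other pairs were read and are not given here.

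COR-L88 given TAS1440 showed another pattern. Of 33 members tested (*SLC2A3* was near 0 throughout) 16 were higher and 5 lower than with DMSO, where 31.1% and 26.6% of all genes were called, and the median was 0.36 against 0.01. No enzyme was lower and 7 of 14 were higher. Quantile normalization moved the median of all genes by -0.15 here and centring each library on its median by -0.14; the counts were then 13 higher and 7 lower, and 11 and 7.

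*SLC16A3* rose most. It was 3.48, 3.24 and 3.99 with DMSO and 7.23, 7.49 and 6.95 with TAS1440, a log2 fold change of 3.65 (SE 0.33, limma adjusted *P* = 8.31e-07), and 4.69, 4.20 and 3.93 with TAS1440 plus GSI. The TAS1440 libraries lay above all others. *PFKFB3* was 4.43, 4.31 and 4.52, 6.12, 6.13 and 5.98 and 4.84, 4.63 and 4.82 in the same order, a log2 fold change of 1.66 (SE 0.15, limma adjusted *P* = 7.79e-07). *P4HA2* was 1.65, 1.30 and 1.52, 3.26, 3.43 and 3.27 and 1.86, 1.70 and 2.06, a log2 fold change of 1.83 (SE 0.17, limma adjusted *P* = 1.13e-06). In both genes TAS1440 alone stood apart from the other 2 groups. *ADM* (2.09 (SE 0.26)), *HK2* (1.49 (SE 0.23)), *P4HA1* (1.34 (SE 0.20)), *EGLN3* (1.19 (SE 0.18)), *PGAM1* (0.96 (SE 0.18)), *ALDOA* (0.88 (SE 0.26)) and *LDHA* (0.67 (SE 0.26)) were called higher. *EPAS1* was 2.75, 2.48 and 2.48 and 3.88, 3.77 and 3.53, a log2 fold change of 1.15 (SE 0.16, limma adjusted *P* = 3.05e-05), and 2.64, 2.62 and 2.45 with GSI. *HIF1A* (0.36 (SE 0.10)) and *ENO1* (0.47 (SE 0.18)) were called higher by less. *BNIP3* (-0.05 (SE 0.18, limma adjusted *P* = 0.829)), *VEGFA* (0.76 (SE 0.63, limma adjusted *P* = 0.317)), *SLC2A1* (0.10 (SE 0.15, limma adjusted *P* = 0.607)), *LDHB* (0.01 (SE 0.11, limma adjusted *P* = 0.95)), *ENO2* (-0.43 (SE 0.18, limma adjusted *P* = 0.0528)) and *ALDOC* (-0.12 (SE 0.18, limma adjusted *P* = 0.593)) were not called.

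The 5 members that fell were *CA9*, *NDRG1*, *PFKFB4*, *PDK1* and *KDM3A*. *NDRG1* was 5.51, 5.38 and 5.88 with DMSO, 3.57, 4.00 and 4.09 with TAS1440 and 4.98, 5.09 and 5.13 with GSI added, a log2 fold change of -1.71 (SE 0.25, limma adjusted *P* = 5.72e-05). *CA9* was 1.98, 1.92 and 2.93, 0.52, 0.28 and 0.33 and 1.00, 0.71 and 1.80, a log2 fold change of -1.90 (SE 0.38, limma adjusted *P* = 0.00072). *PFKFB4* was 4.79, 4.62 and 5.33, 3.24, 3.39 and 3.35 and 3.63, 3.66 and 3.10, a log2 fold change of -1.59 (SE 0.20, limma adjusted *P* = 1.62e-05). For *NDRG1* the GSI libraries lay between the other groups, and for *PFKFB4* they overlapped TAS1440 alone. *CA9* passed the filter only with libraries not given TAS1440 alone, and without such genes 4 of 32 members were lower and 16 of 33 higher, against 25.0% and 28.5% of all genes.

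With GSI added, 3 members were higher (*HK2*, *ADM* and *EGLN3*) and 8 lower than with DMSO, against 13.1% and 11.4% of all genes; without GSI library 16 or 17, 5 or 7 were called in all. *HK1*, the broadly expressed hexokinase, was among those lower (-1.10 (SE 0.17)), with *PFKP* (-0.88 (SE 0.24)) and *ENO2* (-0.81 (SE 0.18)). TAS1440 alone against TAS1440 plus GSI had 16 higher and 3 lower (*NDRG1*, *PDK1* and *LDHB*), against 27.7% and 19.0% (11 and 4 with each library centred on its median). *SLC16A3* differed by 2.95 (SE 0.33), *PFKP* by 1.48 (SE 0.24) and *EPAS1* by 1.16 (SE 0.16). These 3 comparisons share libraries. *NOTCH1* mRNA was 0.61, 0.74 and 0.63 with DMSO, 1.99, 2.79 and 2.26 with TAS1440 and 6.73, 6.71 and 6.75 with GSI, which acts on the protein.

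**Figure D4:**
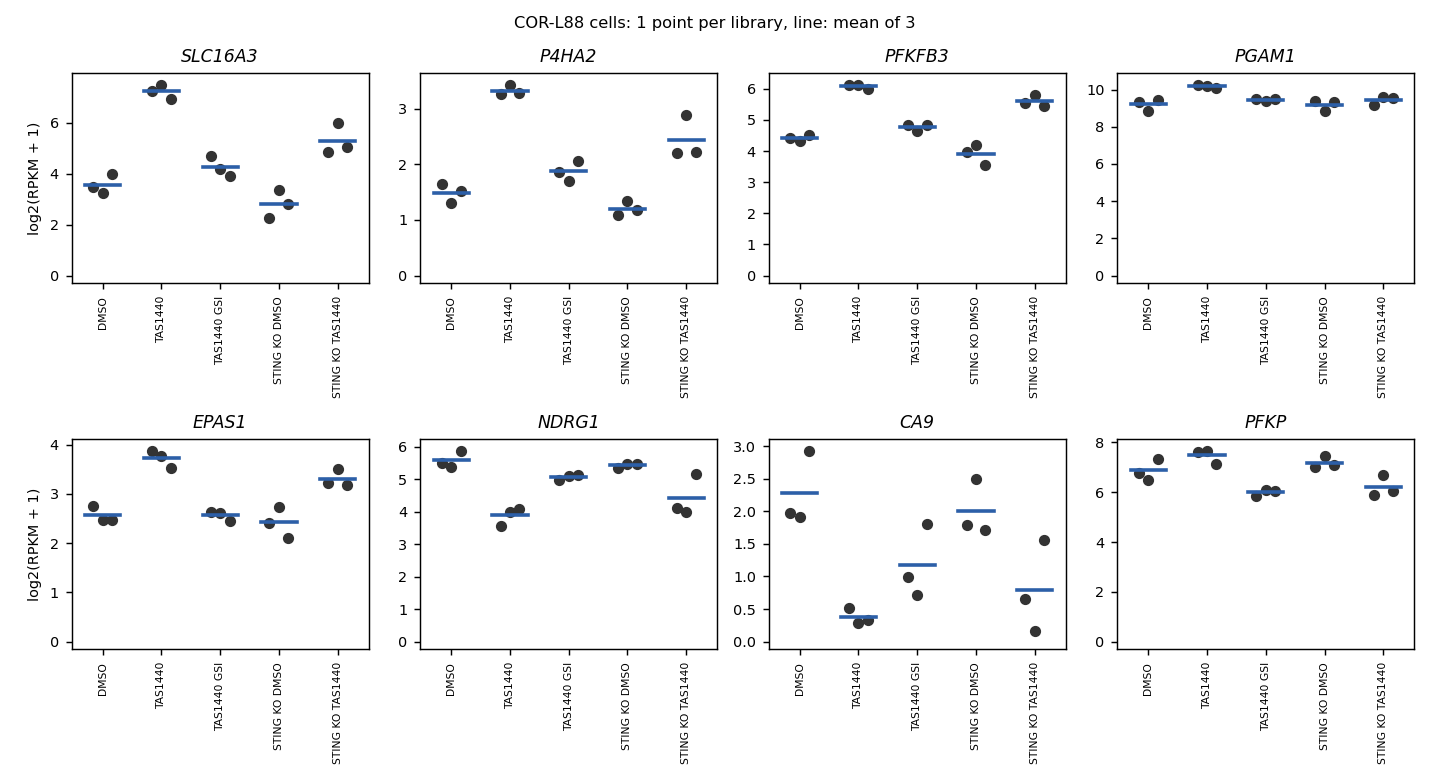
Log2(RPKM + 1) of 8 members in each COR-L88 library (points) of the 5 groups. *SLC16A3*, *P4HA2*, *PFKFB3* and *EPAS1* are highest with TAS1440 alone in intact cells, and *NDRG1* and *CA9* are lowest there or in STING KO cells given TAS1440.

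In STING KO COR-L88 cells TAS1440 raised 9 members and lowered 9, against 22.4% and 20.9% of all genes. *SLC16A3* was 2.25, 3.36 and 2.82 with DMSO and 4.84, 5.98 and 5.04 with TAS1440 (2.47 (SE 0.33)). *VEGFA* was 2.45, 5.35 and 2.15 and 6.25, 6.84 and 6.29, a log2 fold change of 3.14 (SE 0.63, limma adjusted *P* = 0.0012), and 1 DMSO library stood well above the other 2. *PFKFB3* (1.69 (SE 0.15)), *P4HA1* (1.54 (SE 0.20)) and *HK2* (1.24 (SE 0.23)) were called higher and *PFKFB4* (-1.73 (SE 0.20)), *CA9* (-1.21 (SE 0.38)) and *NDRG1* (-1.01 (SE 0.25)) lower. *CA9* passed the filter only with libraries not given TAS1440 alone, so its call is given as values only. *HK1* (-1.14 (SE 0.17)) and *PFKP* (-0.99 (SE 0.24)) were called lower here, whereas in intact cells *HK1* gave -0.10 (SE 0.17, limma adjusted *P* = 0.622) and *PFKP* was called higher (0.60 (SE 0.24)), and the responses differed by -1.04 (SE 0.24, limma adjusted *P* = 0.0209) and -1.60 (SE 0.34, limma adjusted *P* = 0.0152). *HIF1A* was the other member whose response differed (-0.49 (SE 0.14, limma adjusted *P* = 0.0483)), which makes 3 against 7.93% of all genes, or 1 without library 11, 42, 43 or 45 and 6 without 41 or 44.

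Between genotypes given TAS1440, 14 members were lower in STING KO cells and 1 (*PDK1*) higher, against 18.8% and 8.34% of all genes, with *SLC16A3* (-1.94 (SE 0.33)), *PFKP* (-1.28 (SE 0.24)), *HK1* (-1.04 (SE 0.17)), *HK2* (-1.02 (SE 0.23)) and *P4HA2* (-0.89 (SE 0.17)) the most negative (9 and 2 with each library centred on its median); 7 were called without STING KO library 43. With DMSO 3 were lower, *VEGFA* (-2.73 (SE 0.63)), *P4HA1* (-0.95 (SE 0.20)) and *ALDOC* (-0.80 (SE 0.18)), and 0 higher, against 3.13% and 2.28%; that count was 0 without STING KO library 40 or 42, 1 without library 12, and 5 without library 11 or 41. *TMEM173* was 2.54, 2.04 and 2.03 in intact and 1.16, 1.09 and 0.96 in STING KO cells given TAS1440.

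In KP1, 27 of the 32 members with a row passed the filter. TAS1440 raised 7 and lowered 6, where 18.2% and 18.5% of all genes were called, and the median was 0.21 against 0.02. *Eno1* was 3.91, 4.05 and 4.82 with DMSO, 5.99, 6.87 and 6.11 with TAS1440 and 4.55, 4.31 and 3.48 with GSI added, a log2 fold change of 2.06 (SE 0.36, limma adjusted *P* = 0.00189). *Ldhb* was 0.45, 0.39 and 0.17, 2.27, 1.69 and 3.25 and 0.44, 0.76 and 1.13, a log2 fold change of 2.06 (SE 0.34, limma adjusted *P* = 0.00133). *Hif1a* was 1.64, 1.65 and 1.92, 3.46, 2.88 and 2.92 and 2.13, 1.93 and 1.86, a log2 fold change of 1.35 (SE 0.19, limma adjusted *P* = 0.00041). In these 3 genes the TAS1440 libraries lay above the other 6. *P4ha2* (1.65 (SE 0.20)), *Ndrg1* (1.28 (SE 0.19)), *Adm* (1.04 (SE 0.12)) and *Pgk1* (0.94 (SE 0.28)) were higher too, and *Ldhb*, *P4ha2* and *Adm* passed the filter only through the TAS1440 libraries, as *Ankrd37* and *Kdm3a*, called lower, did only through the others. Without genes admitted by the side where they are high, 4 of 22 members were higher and 4 of 23 lower, against 12.7% and 9.91% of all genes. *Epas1* stayed at or under 0.06 in every KP1 library.

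Lower with TAS1440 in KP1 were *Ankrd37*, *Bnip3*, *Pdk1*, *Slc16a3*, *Eno2* and *Kdm3a*. *Ankrd37* was 2.22, 2.45 and 3.47, 0.40, 0.23 and 1.03 and 2.35, 2.57 and 1.63 in the order of groups above, a log2 fold change of -2.16 (SE 0.37, limma adjusted *P* = 0.00153). *Bnip3* was 3.11, 3.17 and 3.69, 1.95, 1.08 and 3.02 and 2.77, 3.02 and 2.43, a log2 fold change of -1.30 (SE 0.42, limma adjusted *P* = 0.0373), with the third TAS1440 library close to the controls. *Slc16a3*, at 2.81, 2.97 and 3.16, 2.01, 2.15 and 2.68 and 2.36, 2.62 and 2.09, changed by -0.70 (SE 0.21). *Ldha* (0.43 (SE 0.31, limma adjusted *P* = 0.315)), *Hk2* (-0.00 (SE 0.33, limma adjusted *P* = 0.994)), *Slc2a1* (-0.89 (SE 0.45, limma adjusted *P* = 0.155)), *Aldoc* (0.80 (SE 0.67, limma adjusted *P* = 0.386)) and *Vegfa* (0.20 (SE 0.43, limma adjusted *P* = 0.754)) were not called. With GSI added 0 members were called higher and 0 lower than with DMSO by limma (0.642% and 1.33% of all genes; 5 at an unadjusted *P* under 0.05, and 1 called when those 2 groups were fitted alone), and TAS1440 alone against TAS1440 plus GSI gave 10 higher and 2 lower (15.7% and 16.3%), with *Eno1* at 2.21 (SE 0.36) and *Aldoa* at 1.93 (SE 0.43). Those 10 and 2 include *Ldhb* and *P4ha2* (higher) and *Ankrd37* (lower), which passed the filter only on the side where they are high. Counts without such members were not made for that comparison.

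**Figure D5:**
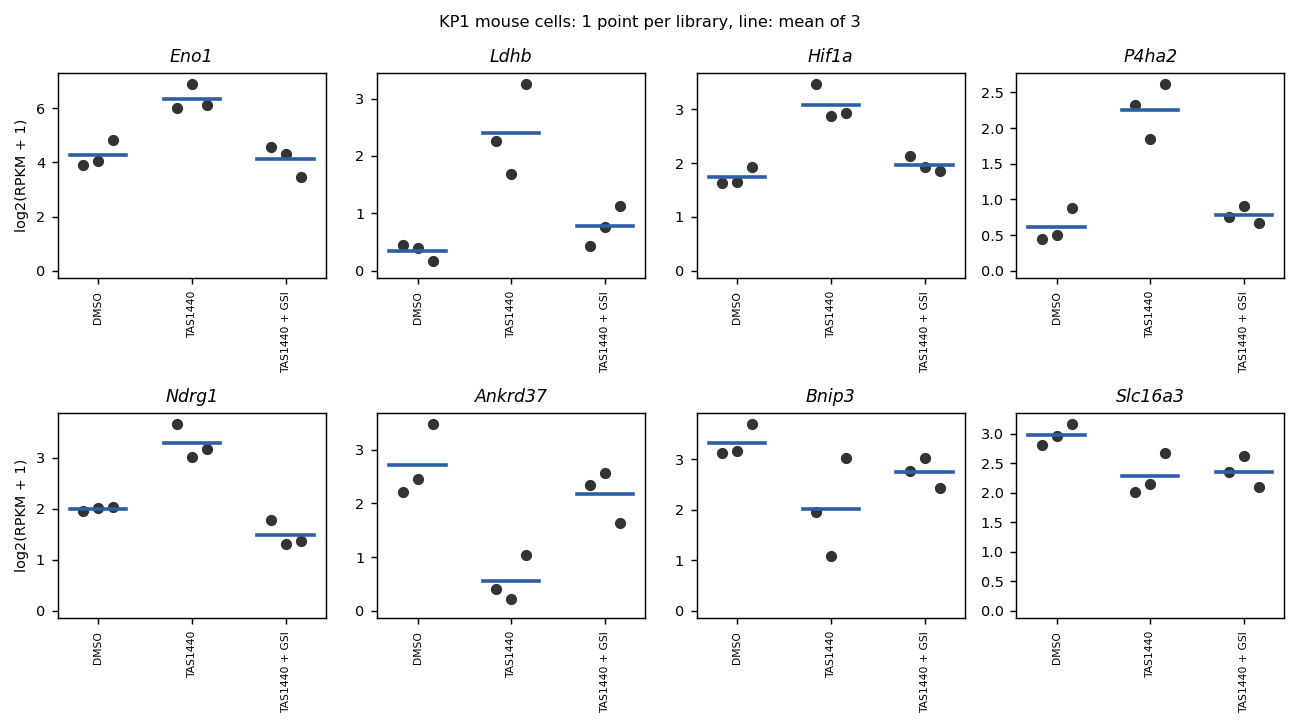
Log2(RPKM + 1) of 8 mouse members in each KP1 library (points) of the 3 groups. *Eno1*, *Ldhb*, *Hif1a*, *P4ha2* and *Ndrg1* are higher and *Ankrd37* lower in the TAS1440 libraries than in the other 6; *Bnip3* and *Slc16a3* overlap between groups.

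Between the human and the mouse line given TAS1440, which share no libraries, 26 members were tested in both. *ENO1*, *ADM*, *P4HA2* and *HIF1A* were called higher in both (15.4%, against 11.0% of the 6880 genes tested in both), and *PDK1* and *KDM3A* lower in both (7.69%, against 7.25%). *SLC16A3* and *NDRG1* were called in opposite directions (7.69%, against 5.16%): *SLC16A3* changed by 3.65 in COR-L88 and -0.70 in KP1, and *NDRG1* by -1.71 and 1.28. *Adm* and *P4ha2*, and *Kdm3a*, passed the KP1 filter only through the side where they are high. Of the 20 members that passed on both sides in both lines, *ENO1* and *HIF1A* were called higher in both (10.0%, against 8.39% of 4984 genes), *PDK1* lower in both (5.0%, against 4.45%) and *SLC16A3* and *NDRG1* in opposite directions (10.0%, against 3.51%). The tables were scaled separately, and these differences between lines were not tested.

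Other genes of the pathway were taken from lists that hold none of the 34. Which of them passed the filter only on the side where they are high was not checked. Over all genes tested 26.1% were lower and 26.8% higher with N1ICD in H82, 14.4% and 17.9% in H524, 38.3% and 44.1% in H69, and with TAS1440 26.6% and 31.1% in COR-L88 and 18.5% and 18.2% in KP1, and the lists are to be read against these shares. With N1ICD in H82, 6 of 16 other glycolysis and pyruvate genes were lower and 3 higher, in H524 6 and 3 of 15, and in H69 3 and 8 of 15. With TAS1440 the counts were 5 lower and 5 higher of 16 in COR-L88 and 1 and 4 of 11 in KP1. *PKM*, the pyruvate kinase that ends glycolysis, was called lower in H82 (-2.35) and H524 (-1.55) and higher in H69 (0.55). *PDK4*, a pyruvate dehydrogenase kinase like *PDK1*, was called higher in H82, H524 and H69 (3.58, 9.73 and 0.68), where *PDK1* was called lower (-2.60, -1.06 and -0.50). Among HIF pathway regulators 2 of 7 were higher and 0 lower in H82, 1 and 0 of 8 in H524, 2 and 2 of 7 in H69, 2 and 1 of 7 in COR-L88 and 2 and 1 of 6 in KP1.

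Of other hypoxia-inducible genes, 11 of 26 were lower and 6 higher in H82, 5 and 6 of 25 in H524, 12 and 8 of 25 in H69, 3 and 14 of 24 in COR-L88 with TAS1440, and 2 and 6 of 21 in KP1. *STC1*, a secreted hormone, was called lower with N1ICD in H82, H524 and H69 (-4.005, -4.22 and -6.70). The histone demethylase *KDM4B* (-3.47) and *FAM162A* (-3.20) were called lower in H82, and *BHLHE40*, a transcriptional repressor, in H69 (-3.46). *LOX*, which crosslinks collagen, was called higher in COR-L88 (3.44) and KP1 (4.81) and not called in H82, H524 and H69 (-0.37, 0.70 and -0.06). *LOXL2* (2.86) and the collagen lysyl hydroxylase *PLOD1* (2.29) were called higher in H69 and not called in H82 (1.22 and 0.53). *PLOD2*, another lysyl hydroxylase, was called lower in H524 (-0.90) and higher in H69 (0.99).

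Cell identity genes were read in the same libraries. The summed log2 level of 8 neuroendocrine markers was 52.3 to 52.4 in H82 libraries 5 and 6, 50.9 in library 4, 46.8 to 47.9 in parental cells and 17.4 to 19.7 with dox. It went from 54.4 to 56.4 to 38.0 to 45.3 in H524 with N1ICD, from 52.2 to 54.9 to 10.7 to 11.8 in H69, and from 51.9 to 52.7 to 23.3 to 26.4 in COR-L88 with TAS1440 (34.9 to 35.8 with GSI). At least 7 of the 8 markers reached a log2 of 1 in untreated human cells and 6 in KP1 cells, where *NCAM1* and *NEUROD1* homologs were under 1. In H524 with *REST* the sum was 50.3 to 55.7. In H82 *REST* KO cells it went from 49.5 to 50.1 to 32.1 to 34.0. The response to dox was called different from that of intact cells for 5 of 7 markers tested (each more positive in *REST* KO cells). It was called for 0 of 34 members by limma. These counts are not compared, since the members were spread more widely than most genes over the H82 parental libraries. In H82 STING KO cells the sum went from 39.1 to 42.5 to 13.7 to 23.3, and in COR-L88 STING KO cells given TAS1440 from 53.5 to 54.0 to 30.7 to 33.0. KP1 libraries given TAS1440 ranged from 0.68 to 15.1, against 29.8 to 31.8 with DMSO.

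Markers of other cells were checked as well. The leukocyte marker *PTPRC* reached at most 0.38, the T cell marker *CD3E* 0.14 and the endothelial marker *CDH5* 0.24 in any human library. The fibroblast collagens *COL1A1* and *COL3A1* were called higher with N1ICD in H82 (3.34 and 5.40), H524 (4.42 and 11.76) and H69 (10.10 and 12.90). In H69 their medians over all libraries were 0.84 and 0.00, so both passed the filter only through the dox group. Those calls are given as values only, and in H82 and H524 the side that admitted the collagens was not checked. The 5 markers of other cells summed to 16.2 to 18.0 in H82 with dox, against 0.06 to 0.21 in parental cells, 0.34 in library 4 and 8.38 to 8.88 in libraries 5 and 6. Only 2 of the 5 reached a log2 of 1 with dox. *PTPRC*, *CD3E* and *CDH5* reached at most 0.06, 0.14 and 0.02 in H82, so the high sums are those of the 2 collagens. The *REST* KO cells without dox were at 0.23 to 0.35 and the STING KO cells at 1.97 to 5.57, so libraries 5 and 6 were the highest of the untreated H82 libraries in this sum, whereas parental library 1 was as high as they were in *ALDOC* and *HK2*. The part of the collagens and of the neuroendocrine markers in the results was not tested.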

How the data were processed

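PolyA RNA of 69 libraries was extracted with an AllPrep kit, made into libraries with Illumina Stranded mRNA Prep and sequenced in paired-end mode. Per the methods and the submitters' processing notes, the authors trimmed reads with Cutadapt, aligned them with STAR (hg19 or mm10), quantified genes with RSEM, scaled the counts by TMM in edgeR and transformed them to RPKM; versions, annotation and gene lengths are not given in the sources used here. The deposited values are log2(RPKM + 1), in a human table of 60 libraries and a KP1 table of 9 that was scaled separately. They are not counts, so the count-based fit named in the methods was replaced by limma on the deposited log2 values. Read depth is not in the tables; relative library sizes recovered from low values ran from 0.698 to 1.52.

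Tested were genes that reached a log2 value of 1 in 3 or more libraries of a line (13903 in H82, 13648 in H524, 13580 in H69, 13134 in COR-L88, 8260 in KP1 and 15888 in the joint human fit). limma 3.58.1 in R 4.3.3 was fitted with 1 mean per group, all groups of a line together and an intensity trend, and library 4 as a level of its own; the joint fit gave the differences between lines. Adjustment of *P* values (Benjamini-Hochberg) covered every gene of a fit, and no fold minimum was used. Each line's fit was checked on simulated data. Python 3.11.15, pandas 2.3.3, numpy 2.4.6 and matplotlib 3.10.9 made summaries and plots.

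Libraries 28 and 29, 35 and 36, and KP1 libraries 1 and 2 were the closest pairs by mean chi-square per gene (1.70, 1.36 and 1.72). Their medians were 0.56, 0.63 and 0.86, where counting noise alone gives a median of 0.455. By median, H69 libraries 52 and 54 (0.80), 53 and 54 (0.82), 47 and 48 (0.82) and 52 and 53 (0.83) lay closer than the KP1 pair. All were kept as separate libraries, and the H69 pairs were not among those averaged as an alternative. Groups came from the labels. The members and lists were chosen with earlier results of these data known. Named were the 5 called members of largest change in each direction, *HK2*, *SLC2A1*, *LDHA*, *LDHB*, *ENO1*, *ENO2*, *ALDOC*, *PDK1*, *CA9*, *VEGFA*, *BNIP3*, *HIF1A* and *EPAS1* in every line, and up to 3 called genes of the wider lists in each direction with a mean log2 of at least 2 in the higher group; other members and examples were picked after their values were seen, as were *PKM* and *PDK4* in lines where that rule does not name them, and some genes of the wider lists that the rule names are not reported here. Alternatives were no filter, quantile normalization, centring of each library on its median, a pseudocount of 0.1, a log2 fold of at least 1, each library left out, only the compared groups, and library 4 in its labelled group; parental cells as control, averaged closest pairs and the counts without genes that passed the filter only on the side where they are high were added after seeing the data.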

Additional observations from a re-analysis of the deposited data

Results flagged for a closer look

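The responses of some members differed between lines or genotypes by the interaction term of the limma fit (adjusted *P* under 0.05), and the values below are those differences in log2 fold change for the members named by the rule in the methods. In H82 the response to dox in STING KO minus that in intact cells was 1.36 for *PFKM*. In H524 the response to *NOTCH1* minus that to *REST* was 4.52 for *EPAS1*, 3.03 for *VEGFA*, -1.96 for *LDHA*, -3.19 for *NDRG1* and -2.08 for *SLC2A1*. In COR-L88 the response to TAS1440 in STING KO minus that in intact cells was -0.49 for *HIF1A*, -1.04 for *HK1* and -1.60 for *PFKP*. Of all genes, 19.1% were called for the difference in H524 and 7.93% for that in COR-L88.

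The *NOTCH1* response in H69 minus that in H82 was 5.23 for *ALDOC*, 4.19 for *ANKRD37*, 3.46 for *HK2*, 3.03 for *PFKFB4*, 3.00 for *PFKFB3*, 2.34 for *LDHB*, 2.13 for *LDHA*, 2.10 for *PDK1*, 1.90 for *ENO1* and 1.83 for *BNIP3*, and -2.90 for *ADM*, -3.66 for *CA9* and -2.02 for *VEGFA*. In H69 minus H524 it was 2.88 for *SLC2A1*, 1.28 for *PGAM1*, 1.17 for *LDHB*, 1.11 for *ENO1*, 0.82 for *PFKM* and 0.57 for *HIF1A*, and -4.74 for *CA9*, -3.50 for *VEGFA*, -2.98 for *ADM*, -2.27 for *NDRG1* and -2.16 for *ENO2*. In H524 minus H82 it was 4.84 for *ALDOC*, 3.36 for *BNIP3*, 3.22 for *ANKRD37*, 2.99 for *HK2*, 2.91 for *PFKFB4*, 1.53 for *PDK1*, 1.30 for *ENO2* and 1.16 for *LDHB*, and -1.91 for *SLC2A1*. Fewer members were called in H524 minus H82 with library 4 in its labelled group. Of all genes, 59.4% were called for H69 minus H82, 56.3% for H69 minus H524 and 37.4% for H524 minus H82. At these shares a call by itself does not set a member apart.

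*Car9*, the mouse carbonic anhydrase whose symbol is not the title-case form of *CA9* and which therefore enters no comparison above, reached 4.06 in 1 KP1 library given TAS1440. The other 2 TAS1440 libraries were at 3.04 and 0.08, the DMSO libraries at 0.01, 0.01 and 0.00, and the libraries with GSI added at 0.03, 0.01 and 0.00.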

How the results depend on the processing

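No paired analysis was possible because the groups of a line share no library numbers. Counts are members called in either direction, with the value of the report in brackets. Requiring a log2 fold of at least 1 gave 0 for H82 dox *REST* KO against intact (2) and STING KO against intact (5), 0 for H524 *REST* (1), 16 for H69 (29), 1 for H69 without dox against parental (3), 11 for COR-L88 TAS1440 (21), 5 for TAS1440 plus GSI (11), 6 for TAS1440 against TAS1440 plus GSI (19), 4 for STING KO against intact with TAS1440 (15) and 1 with DMSO (3), and 8 for KP1 TAS1440 (13). Fitting only the 2 compared groups gave 7 and 10 for the H82 dox *REST* and STING KO contrasts, 0 for H82 and 0 for H524 *NOTCH1* without dox against parental (5 and 3), 2 for H524 *REST*, 0 for COR-L88 DMSO STING KO against intact and 1 for KP1 TAS1440 plus GSI (0). Library 4 in its group gave 1 and 3 for the H82 KO contrasts, 0 for H82 against parental, 0 for the STING KO interaction (1) and 8 for H524 minus H82 (18). H82 against parental gave 2 without the filter and 1 with quantile normalization, and H69 against parental 5 with quantile normalization. H524 *REST* gave 0 without the filter, 2 with the smaller pseudocount, 3 against parental cells and 0 with averaged pairs.

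Leaving out 1 library at a time gave 25 to 27 in H82 (27), 24 to 26 with *REST* KO (26), 20 to 26 with STING KO (26), 2 to 4 and 2 to 6 for the H82 *REST* and STING KO contrasts, 0 to 24 for H82 against parental, 12 to 19 in H524 (16), 0 to 1 for *REST*, 5 to 6 for *NOTCH1* against *REST* (10), 0 to 6 for H524 *NOTCH1* without dox and 0 to 0 for *REST* without dox against parental, 25 to 30 in H69, 1 to 9 for H69 against parental, 16 to 22 for COR-L88 TAS1440, 5 to 9 for TAS1440 plus GSI, 13 to 16 for TAS1440 against TAS1440 plus GSI, 15 to 18 for STING KO TAS1440 (18), 7 to 16 and 0 to 5 for STING KO against intact with TAS1440 and DMSO, 9 to 14, 0 to 0 and 10 to 14 for the KP1 comparisons (13, 0 and 12), and for the interactions 0 to 0 (H82 *REST* KO), 1 to 2 (H82 STING KO), 3 to 7 (H524), 1 to 6 (COR-L88), 19 to 22 (H69 minus H82), 9 to 13 (H69 minus H524) and 12 to 22 (H524 minus H82); the libraries that moved a count by over 1.5 times are named beside it in the report. Of the values of single genes 5215 kept their direction and their side of the threshold, 84 passed it newly, 340 no longer passed and 1 reversed (*EGLN3* in H524 with *NOTCH1*, 0.15 against parental cells). The cause of these moves was not tested, beyond the fewer libraries and stricter rules by construction.

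With 2 or 3 libraries a group, changes below the spread of the untreated H82 and H524 libraries cannot be seen, and genes near a log2 of 0 (*CA9* in H82, *SLC2A3* in COR-L88, *Epas1* in KP1) carry little information.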

Other observations

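*Gpi1*, the mouse glucose-6-phosphate isomerase, has no title-case match to *GPI* and enters no count above. Its log2 level was 3.47 to 3.99 with DMSO, 3.49 to 3.92 with TAS1440 and 2.53 to 3.63 with TAS1440 plus GSI in KP1, 3 libraries each, so the groups overlapped.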
